A study of Mus musculus with 4 samples.

Results

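The spots described here are the collagen-richest 10% of the liver spots away from the organ surface in 3 mouse livers treated with carbon tetrachloride (CCl4), a hepatotoxin. They are called scar spots below. A spot is a small barcoded area of a Visium slide that can hold several cells, or parts of cells, of different types. Scar spots were chosen in each section among spots with at least 2000 unique molecular identifiers (UMIs, each counted as 1 captured transcript). A spot counted as surface where a UMI of Msln or Upk3b, which mark the mesothelium that covers the liver, lay in it or in a spot 1 array step away. Among the rest, the 10% with the highest share of UMIs from Col1a1, Col1a2 and Col3a1, the main fibrillar collagens of scar tissue, were taken. This gave 791 scar spots of 7910 non-surface spots and of 13640 spots in the series. There were 274 in fibrotic replicate 1, 265 in the Hk2-deleted section and 252 in fibrotic replicate 2, against 2467, 2387 and 2265 other non-surface spots.

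Fibrous scar in the CCl4-treated liver is laid down mainly by hepatic stellate cells, the vitamin A-storing pericytes of the sinusoids, which turn into contractile, matrix-producing myofibroblasts. CCl4 is made toxic by the cytochrome Cyp2e1, which hepatocytes near the central vein express, so injury and scar are known to start there. Portal fibroblasts around the bile ducts and smooth muscle cells of vessel walls also make fibrillar collagen, and macrophages, lymphocytes and neutrophils gather in the scar.

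The study measured formalin-fixed mouse liver sections, 1 section from 1 mouse in each library, to ask how glycolysis in stellate cells relates to fibrosis in space. All 4 mice carried Hk2fl/fl, a conditional allele of hexokinase 2, were labelled male and 5 months old, and had received 75 mg/kg tamoxifen on 5 consecutive days followed by a pause of 2 weeks. The healthy mouse (Hk2fl/fl) then had olive oil; fibrotic replicates 1 and 2 (Hk2fl/fl) had CCl4 2 times a week for 6 weeks at 1 µL/g; and the Hk2-deleted mouse (PDGFRBcreERT2/Hk2fl/fl, group fibrotic_Hk2_deleted) had the same CCl4 course. Its Cre is driven by Pdgfrb, which is active in stellate cells and in other pericytes and vascular mural cells, so deletion need not be limited to stellate cells, and the group is a single mouse. The series design gives 6 weeks of CCl4, whereas the treatment protocol allows a shorter course as well.

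The sections held 40585039 to 67479047 UMIs, and 2577 to 4134 spots. Fibrotic replicate 1 was labelled male, yet the summed level of 4 Y-linked genes in its non-surface spots outside the scar was 1.1 CPM (UMI counts scaled to a common total), against 144 and 145 CPM in the other CCl4 sections and 158 CPM in the healthy one. Each count that opens a comparison below is therefore also given without that section. Surface spots made up 33.4%, 31.1% and 2.29% of the spots in fibrotic replicate 1, the Hk2-deleted section and fibrotic replicate 2. A spot called surface by 1 UMI in or beside it need not lie on the liver surface, and whether these spots do was not tested. The median depth of scar spots was 16272, 12860 and 12616 UMIs in that order, and that of the other spots 14617, 16069 and 13797 UMIs, so depth differed in both directions. The replicates are single sections of single mice, and only 3 entered the comparisons, which leaves 2 residual degrees of freedom per gene. The p-values rest on how alike the differences within the 3 sections were. The variance behind them is drawn partly from all genes by edgeR, so a very small p-value does not stand for more mice.

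The values used for the choice are given as a description. The lowest collagen share among scar spots was 0.241246%, 0.127779% and 0.141889% in fibrotic replicate 1, the Hk2-deleted section and fibrotic replicate 2, and the highest share outside the scar was 0.241237%, 0.127192% and 0.141718%. Spots on either side of the boundary therefore differed little. The median share was 0.314%, 0.172% and 0.199% in scar spots and 0.0933%, 0.0460% and 0.0462% in the others. A scar spot held a median of 52.5, 23 and 27 collagen UMIs and at least 9. Scar spots together held 27.9%, 28.2% and 29.3% of all collagen UMIs found away from the surface, so most of them lay outside the chosen 10%. The boundary was set within each section: 1 common boundary would have taken 524, 117 and 150 spots. No non-surface spot of the healthy section reached the lowest boundary of the CCl4 sections.

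**Figure D1:**
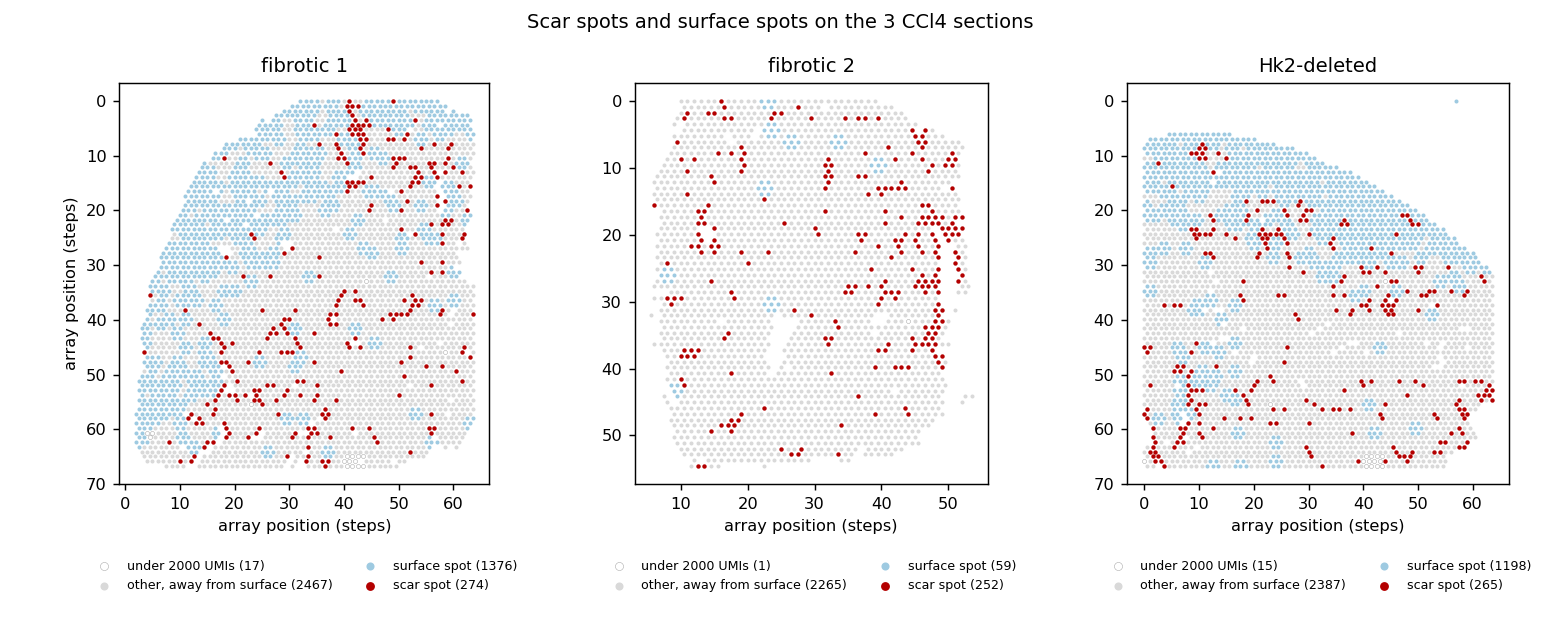
Position of the spots on the array, in array steps, in fibrotic replicate 1 (left), fibrotic replicate 2 (middle) and the Hk2-deleted section (right). Dark red points are the 274, 252 and 265 scar spots, light blue points surface spots, grey points the other non-surface spots and open points spots under 2000 UMIs; scar spots form short chains and small patches, and surface spots fill a broad band in 2 of the 3 sections.

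Scar spots lay next to one another and towards the central vein. Of the neighbours of scar spots, 26.5%, 30.2% and 33.0% were scar spots in fibrotic replicate 1, the Hk2-deleted section and fibrotic replicate 2, against 7.65%, 6.77% and 7.23% for the neighbours of other spots. In the collagen-richest 10% of the healthy section, 267 spots, the same shares were 16.2% and 8.79%. The scar spots formed 135, 117 and 90 patches of touching spots, the largest with 23, 13 and 24 spots, and 86, 61 and 49 patches were single spots. A zonation score was made from 11 pericentral and 12 periportal landmark genes, which are expressed around the central vein and the portal tract respectively, and split each section's non-surface spots into 3 zones of equal size. The pericentral zone held 70.8%, 72.8% and 80.2% of the scar spots and the periportal zone 5.84%, 8.68% and 3.97%. The healthy 10% was spread more evenly, with 41.2% in the pericentral zone and 30.7% in the periportal zone. A spot of that healthy 10% held a median of only 3 collagen UMIs and at least 1, so single UMIs weighed heavily in its choice. The part of this in its weaker clustering and more even spread was not tested. The collagen genes are no part of the score, but scar spots hold fewer hepatocyte transcripts, and the part of that in the score was not tested.

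Across all non-surface spots, the transcripts whose level followed the summed level of the 3 collagens most closely included matrix, antigen-presenting and hepatocyte genes. The median over the 3 sections of Spearman's rho was 0.625 for Bgn, a small proteoglycan, 0.612 for Cd74, the class II invariant chain, 0.599 for Igfbp7 and 0.567 for Tmsb4x. It was 0.514 for Cyp2e1, 0.504 for H2-Aa, 0.5001 for Dcn, 0.488 for Lum, 0.469 for Gstm3 and 0.467 for Psap. These were the highest of 8130 genes compared, not counting the 3 collagens. They describe spots of the same libraries, which share depth and overlapping cell types, and carry no test.

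Scar spots differed from the other non-surface spots of the same section in many genes. Of 13318 genes tested, 2463 (18.5%) were higher in scar spots and 2837 (21.3%) lower by edgeR's quasi-likelihood test on UMI sums per section, with section as a block and a Benjamini-Hochberg adjusted p under 0.05. Without fibrotic replicate 1 the counts were 2224 and 2237. These shares are the background against which each gene list is read, and the median log2 fold change over all genes was -0.01. Scaling by library size alone, in place of TMM (a trimmed-mean factor that assumes most genes do not change), moved that median to 0.28 and the split to 6163 higher and 652 lower. Directions below are therefore relative to the bulk of genes. When spots were instead chosen by the collagen share of their neighbours, leaving their own counts out, 1365 genes were higher and 1610 lower, of which 1287 and 1542 were shared with the choice by own counts. The neighbour choice took 38.7%, 45.7% and 49.2% of the same scar spots in fibrotic replicate 1, the Hk2-deleted section and fibrotic replicate 2. The shared calls thus come partly from the same spots. A lower level in a spot can come from fewer cells of a type or from less RNA per cell, which cannot be told apart here. The lists named below were drawn up with earlier results of these data known. Where values of 2 spot kinds are said not to overlap, this describes named genes, most of them picked for the size of their change. The share of all genes without overlap is not given.

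**Figure D2:**
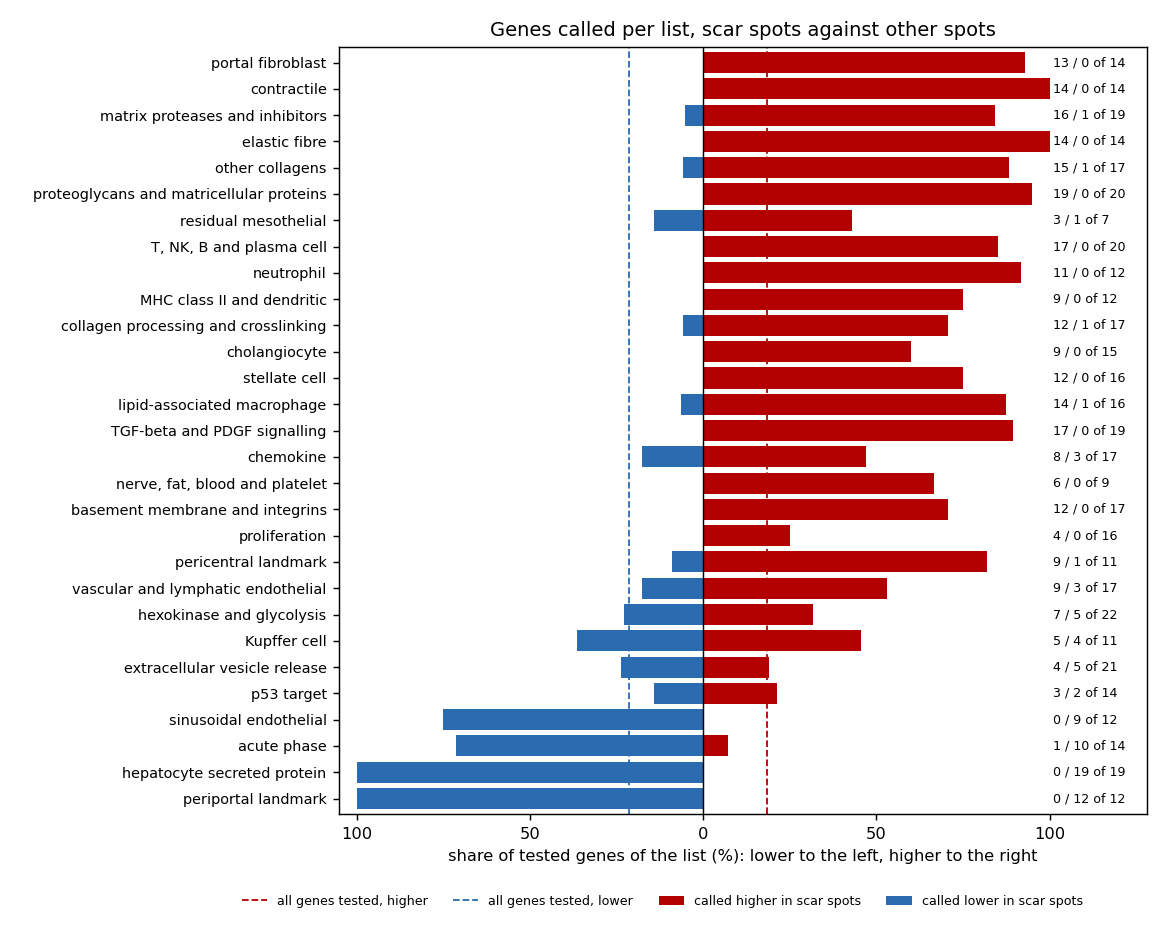
Share of the tested genes of each list that was called higher (right, red) or lower (left, blue) in scar spots than in other non-surface spots, with the counts at the right edge as higher / lower of tested. Dashed lines mark the shares over all genes tested, 18.5% and 21.3%; all 14 contractile and all 14 elastic fibre genes tested were higher, and all 19 hepatocyte secreted protein genes and all 12 periportal landmarks lower.

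The extracellular matrix of the scar spots went well beyond the 3 collagens that chose them. Of 17 other collagen genes, 15 were higher and 1 lower, with a median log2 fold change of 1.06. Col6a2, a chain of the microfibrillar type VI collagen, stood at 134, 112 and 102 CPM (scaled by TMM, as are all levels below except the healthy ones and the summed levels of lists) in the scar spots of fibrotic replicate 1, the Hk2-deleted section and fibrotic replicate 2, and at 53.5, 38.2 and 36.3 CPM in the others. The 2 sets of values did not overlap, and Col6a2 rose by 1.45 ± 0.06 on the log2 scale (SE, as after every ± below; adjusted p = 3.71e-19). The largest change in the list was that of Col6a5, at 12.8, 14.9 and 11.02 CPM against 2.95, 1.68 and 1.78 CPM (2.59 ± 0.19). Col12a1, a collagen that coats fibrils, and Col8a1 rose by 1.62 ± 0.26 and 1.35 ± 0.22. The exception was Col18a1, a basement membrane collagen also made by hepatocytes, at -0.49. With spots chosen by their neighbours the list had 14 higher and 1 lower, Col12a1 was at 1.08 and Col8a1 lost its call (0.68, adjusted p = 0.063). Col12a1 lost its call with spots thinned to 2000 UMIs (1.60).

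Small proteoglycans and matricellular proteins, which space collagen fibrils and modulate cell contact, were higher for 19 of 20 genes, with a median of 1.06. Lum (lumican) was measured at 273, 178 and 213 CPM in scar spots and at 116, 53.9 and 69.4 CPM elsewhere, a log2 difference of 1.51 ± 0.06 (adjusted p = 7.71e-19). Fmod (fibromodulin), which like lumican binds fibrillar collagen, rose by 1.91 ± 0.12 and Smoc2 by 1.61 ± 0.09. All 14 elastic fibre genes tested were higher, with a median of 1.10. Mfap4, a microfibril-associated glycoprotein, was at 60.3, 40.5 and 24.7 CPM against 16.9, 9.62 and 7.27 CPM (1.90 ± 0.09; adjusted p = 1.82e-17). Every scar value of Mfap4 lay above every value outside the scar. Ltbp2, a latent TGF-beta binding protein of microfibrils, had the largest change of the elastic fibre genes, 2.23 ± 0.16, with Mfap2 at 1.86 ± 0.14 and Fbln1 at 1.62 ± 0.19.

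Enzymes that process and crosslink collagen were higher for 12 of 17 genes and lower for 1, with a median of 0.70. Loxl1, a lysyl oxidase that crosslinks elastin and collagen, stood at 71.7, 28.5 and 34.1 CPM in scar spots against 23.5, 8.87 and 10.1 CPM, and rose by 1.67 ± 0.09 (adjusted p = 5.69e-17). Adamts2, which removes the amino-terminal propeptide of procollagen, rose by 1.35 ± 0.07 and Lox by 1.27 ± 0.36. Lox lost its call with DESeq2 (1.26), with no replicate block (1.31), with a surface margin of 3 steps (0.60) and with the richest 5% (0.74). Bmp1, which removes the carboxy-terminal propeptide, was lower at -0.33, a call lost with library size scaling (-0.037) and with no replicate block (-0.33). Both matrix-degrading proteases and their inhibitors were higher: 16 of 19 genes rose and 1 fell, with a median of 1.10. Mmp2, a gelatinase, was at 164, 110 and 140 CPM against 71.1, 34.7 and 43.9 CPM (1.49 ± 0.07), and Ctsk, a collagen-degrading cathepsin, rose by 1.44 ± 0.11. Timp1, the classical inhibitor of metalloproteinases in liver fibrosis, was counted at 17, 12 and 7 UMIs in scar spots, 3.31, 2.88 and 1.88 CPM, against 1.19, 0.804 and 0.888 CPM (1.49 ± 0.32; adjusted p = 0.000265). Timp1 was not past the threshold with spots chosen by neighbours (0.54) or within the pericentral zone (1.00). Mmp19 was lower at -0.44, a call lost with library size scaling (-0.15). Of 17 basement membrane and integrin genes 12 were higher and 0 lower, with a smaller median of 0.34; Itga11, a collagen receptor of fibroblasts, rose by 1.97 ± 0.33, Itga8 by 1.19 ± 0.07 and Lama2 by 1.14 ± 0.12.

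**Figure D3:**
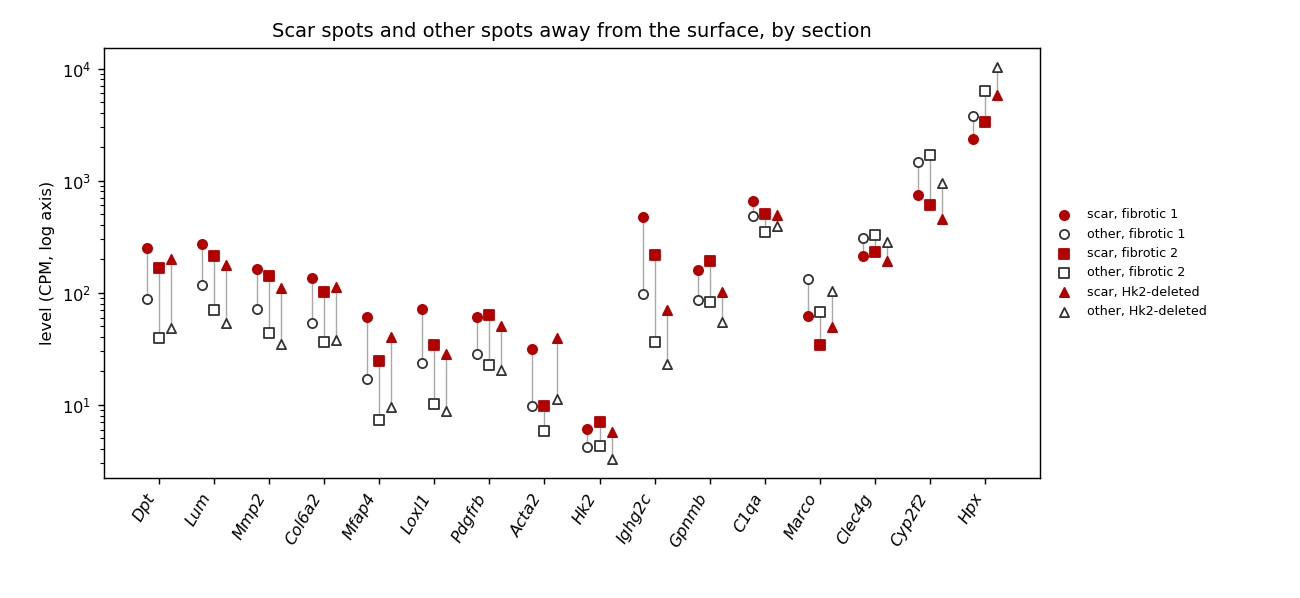
Level of 16 genes in CPM (log axis) in the scar spots (filled red) and the other non-surface spots (open) of fibrotic replicate 1 (circles), fibrotic replicate 2 (squares) and the Hk2-deleted section (triangles), each pair joined by a line. Dpt to C1qa are higher in scar spots in each of the 3 sections, and Marco, Clec4g, Cyp2f2 and Hpx lower.

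Markers of the matrix-producing cells were higher as well. The stellate cell list had 12 of 16 genes higher and 0 lower, with a median of 0.63. Pdgfrb, the platelet-derived growth factor receptor that marks stellate cells and whose promoter drives the Cre, was at 60.7, 50.4 and 62.9 CPM in scar spots against 28.6, 20.3 and 22.6 CPM in the others (1.27 ± 0.08; adjusted p = 3.82e-15). Cygb, a globin of stellate cells, rose by 1.25 ± 0.07, Pdgfra by 1.17 ± 0.08 and Lhx2, a transcription factor that keeps stellate cells quiescent, by 0.90 ± 0.11. All 14 contractile genes were higher, with a median of 1.11. Acta2, alpha smooth muscle actin, was at 31.7, 39.6 and 9.67 CPM against 9.68, 11.2 and 5.79 CPM (1.59 ± 0.13; adjusted p = 4.34e-12). The 2 sets overlapped for Acta2, since the scar spots of fibrotic replicate 2, with 36 UMIs, were no higher than the other spots of the remaining sections, while within each section scar was higher. The level also differed within the scar. In the pericentral scar spots, which were the majority, Acta2 was at 10.6, 12.8 and 6.82 CPM (scaled in the zone comparison below). In the few periportal ones it was at 185, 129 and 73.3 CPM, so the level over all scar spots does not describe most of them. Myh11, the myosin of mature smooth muscle, rose by 1.57 ± 0.14 and Cnn1 by 2.23 ± 0.37, the latter not past the threshold with spots chosen by neighbours (1.30). In the stellate list, 10 of 16 genes were higher when spots were chosen by neighbours, and 11 of 16 when only the pericentral zone was compared, an alternative added after seeing the data.

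Of the portal fibroblast list, 13 of 14 genes were higher, with a median of 1.38, the highest of the lists outside the rule. Dpt (dermatopontin), a matrix protein of fibroblasts, stood at 250, 201 and 164 CPM in scar spots and 87.9, 48.9 and 39.1 CPM outside (1.85 ± 0.07; adjusted p = 4.7e-20). Dpep1, a membrane dipeptidase, rose by 1.72 ± 0.12 and Slpi, a secreted protease inhibitor, by 1.62 ± 0.08. In the pericentral zone alone, 9 of 13 genes of this list were higher, with a median of 1.02. Markers of other cell types that such a spot could hold moved too. Among 7 mesothelial genes outside the rule, 3 were higher and 1 lower; Wt1, a transcription factor of mesothelium, was at 7.78, 6.48 and 9.14 CPM against 3.28, 1.58 and 2.34 CPM (1.68 ± 0.21), and Gpm6a rose by 0.97 ± 0.17. With the surface margin widened to 3 steps Wt1 was still higher, by 1.91. Among scar spots these genes leaned to different zones, though neither difference passed the test. Wt1 had 84 UMIs in the pericentral and 0 in the periportal ones, while Gpm6a was higher in the periportal ones by 1.38 ± 0.51. The summed level of the mesothelial list was 109 to 157 CPM in scar spots and 94.1 to 133 CPM in the others, and 191 to 242 CPM in collagen-rich surface spots. Of 15 cholangiocyte genes 9 were higher and 0 lower, among them Bicc1 (1.13 ± 0.07), but with spots chosen by neighbours only 2 of 14 were higher. The summed cholangiocyte level was 197 to 269 CPM against 113 to 139 CPM. The part of bile duct and mesothelial cells in the results was not tested.

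Growth factors and signalling genes that drive matrix production rose with these markers. Of 19 TGF-beta and PDGF signalling genes, 17 were higher and 0 lower, with a median of 0.48. The ligand Tgfb3 was at 25.5, 18.0 and 13.7 CPM against 9.70, 5.00 and 5.36 CPM (1.52 ± 0.13; adjusted p = 2.56e-11), and Tgfb2 rose by 1.34 ± 0.16. Among downstream genes, Bambi, a decoy receptor that dampens TGF-beta signals, rose by 1.03 ± 0.11 and Tgfbi, a secreted target gene, by 0.71 ± 0.06. Of 17 chemokine genes tested 8 were higher and 3 lower; without fibrotic replicate 1 these counts were 5 and 2.

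Immune cell transcripts were higher in scar spots as well. Of 20 T, NK, B and plasma cell genes, 17 were higher and 0 lower, with a median of 0.91. Ighg2c, an immunoglobulin heavy chain, was at 476, 70.0 and 215 CPM in the scar spots of fibrotic replicate 1, the Hk2-deleted section and fibrotic replicate 2, and at 97.6, 23.0 and 36.6 CPM elsewhere (2.21 ± 0.08; adjusted p = 3.41e-20). Each section was higher in its scar spots, while the scar value of the Hk2-deleted section lay below the value outside the scar of fibrotic replicate 1. Ighg2b rose by 1.25 ± 0.07 and Jchain, which joins secreted IgA and IgM, by 1.17 ± 0.06. Antigen presentation followed: 9 of 12 class II and dendritic cell genes were higher and 0 lower, with a median of 0.83. H2-Eb1 stood at 327, 248 and 259 CPM against 203, 127 and 121 CPM (0.91 ± 0.06), Ciita, the master regulator of class II genes, rose by 0.94 ± 0.09, and Cd209a, a lectin of monocyte-derived dendritic cells, by 1.72 ± 0.20. Of 12 neutrophil genes 11 were higher; Elane, neutrophil elastase, rose by 1.62 ± 0.15, from 5.50, 5.60 and 5.62 CPM to 11.5, 21.6 and 19.6 CPM. The summed neutrophil level varied between sections, at 945, 1551 and 3048 CPM in scar spots.

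Macrophage genes split. Lipid-associated (scar-associated) macrophage genes were higher for 14 of 16 and lower for 1, Plin2 at -0.20, a call that was lost without the Hk2-deleted section (-0.16) and turned with library size scaling (0.095). Gpnmb, a glycoprotein of these macrophages, was at 158, 102 and 191 CPM against 86.5, 54.3 and 81.9 CPM (1.00 ± 0.06; adjusted p = 3.24e-15). Trem2, a lipid-sensing receptor, stood at 52.3, 32.1 and 41.9 CPM against 27.9, 18.1 and 17.6 CPM (0.98 ± 0.08), and Ccr2, the receptor of recruited monocytes, rose by 1.02 ± 0.07. For neither Gpnmb nor Trem2 did the values of scar and other spots overlap. Of 11 genes of Kupffer cells, the resident macrophages of the sinusoids, 5 were higher and 4 lower; without fibrotic replicate 1 the counts were 3 and 2, and without the Hk2-deleted section 2 were lower. C1qa and C1qb, complement genes that other macrophages express too, rose by 0.43 ± 0.05 and 0.40 ± 0.05. Marco, a scavenger receptor, was at 61.4, 49.4 and 34.4 CPM against 133, 103 and 67.5 CPM, a fall of 1.06 ± 0.07 on the log2 scale (adjusted p = 5.66e-15), and Cd163 fell by 0.52 ± 0.09, a call lost with library size scaling (-0.22). Marco is known to be periportal among Kupffer cells. With library size scaling the Kupffer list had 7 higher and 1 lower.

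Endothelial markers moved in both directions. Of 12 sinusoidal endothelial genes 0 were higher and 9 lower, with a median of -0.27. Clec4g, a lectin of the sinusoid, was at 211, 192 and 230 CPM in scar spots and 310, 284 and 327 CPM in the others, without overlap (-0.54 ± 0.05; adjusted p = 2.56e-10). Gpr182, Dnase1l3 and Kdr were lower by -0.56 ± 0.06, -0.49 ± 0.06 and -0.36 ± 0.06. This direction depended on the scaling: with library size alone 2 genes of the list were higher and 3 lower, with a median of 0.02. Of 17 vascular and lymphatic endothelial genes 9 were higher and 3 lower (1 lower without fibrotic replicate 1). Vwf, made by the endothelium of larger vessels, was at 31.7, 42.0 and 44.9 CPM against 19.0, 18.9 and 11.4 CPM (1.24 ± 0.12), and Wnt9b, a signal from central vein endothelium, rose by 1.34 ± 0.24. Ncam1, listed as a nerve marker and also made by activated stellate cells and portal fibroblasts, rose by 2.09 ± 0.17.

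Hepatocyte transcripts made up less of the scar spots, and periportal ones least. All 19 secreted protein genes were lower, with a median of -0.58. Alb (albumin) was at 93013, 56129 and 79119 CPM against 133856, 77381 and 120825 CPM (-0.53 ± 0.06; adjusted p = 2.7e-08). Serpina1c, Hpx, Fga and Fgb were lower by -0.84 ± 0.06, -0.80 ± 0.06, -0.75 ± 0.06 and -0.75 ± 0.06. Acute phase genes, mostly hepatocyte products, were lower for 10 of 14 and higher for 1; Orm3 and Orm1 (orosomucoids) were at -1.08 ± 0.07 and -0.82 ± 0.06 and Saa4 at -0.73 ± 0.06. The gene that was higher, Saa3, a serum amyloid made by inflamed stromal cells and macrophages, rested on 1 section: it was at 8.94, 67.6 and 3.49 CPM in scar spots against 9.87, 26.3 and 4.21 CPM (0.84 ± 0.16), and it was at -0.17 without the Hk2-deleted section and 0.35, not past the threshold, with DESeq2. With library size scaling 3 acute phase genes were higher and 8 lower.

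The landmark genes of the lobule moved in opposite directions. All 12 periportal landmarks were lower, with a median of -1.10. Cyp2f2, a periportal cytochrome, stood at 743, 451 and 608 CPM in scar spots against 1470, 954 and 1694 CPM (-1.18 ± 0.06; adjusted p = 4.45e-16), and Hal, Etnppl, Sds and Gls2, enzymes of amino acid breakdown, were at -1.23 ± 0.07, -1.20 ± 0.07, -1.16 ± 0.07 and -1.15 ± 0.06. Of 11 pericentral landmarks 9 were higher and 1 lower (5 higher without fibrotic replicate 2). Oat, an ornithine-handling enzyme of the last hepatocyte layers, was at 190, 222 and 307 CPM against 158, 114 and 177 CPM (0.67 ± 0.07), and Slc1a2, a glutamate transporter, rose by 0.69 ± 0.08. Cyp2e1 stood at 4080, 4266 and 4511 CPM against 3858, 3816 and 3972 CPM. Its difference, 0.14 ± 0.05 (adjusted p = 0.036), was not past the threshold without any 1 of the 3 sections (0.20 without fibrotic replicate 1, 0.14 without fibrotic replicate 2 and 0.14 without the Hk2-deleted section). Within the pericentral zone the landmarks give no test, since the score that sets the zone is made of them. For the other genes, in that zone 1404 genes were higher and 1697 lower, including 15 of 16 other collagens and all 14 elastic fibre genes higher and all 19 hepatocyte secreted protein genes lower.

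Hexokinase 2, the gene deleted in the Hk2-deleted mouse, was scarce. Hk2 was counted at 31, 24 and 26 UMIs in the scar spots of fibrotic replicate 1, the Hk2-deleted section and fibrotic replicate 2, and at 155, 127 and 130 UMIs in the others. That gave 6.03, 5.76 and 6.99 CPM in scar spots and 4.20, 3.29 and 4.28 CPM outside them. The values did not overlap, and Hk2 was higher in scar spots by 0.67 ± 0.19 (adjusted p = 0.0061). The call was lost without fibrotic replicate 2 (0.66, adjusted p = 0.059), with DESeq2 (0.68), with 1 common boundary (0.56), with the richest 5% (0.73), with spots chosen by neighbours (0.53), with the other spots weighted by zone (0.46), with no replicate block (0.67) and within the pericentral zone (0.39). The level in the Hk2-deleted section was close to the others; Hk2 is also expressed outside Pdgfrb-positive cells, and whether its probe lies in the deleted part was not given, so this level does not check the deletion. Hk1, the ubiquitous hexokinase, was at 31.7, 24.0 and 24.5 CPM against 19.8, 16.2 and 17.2 CPM (0.59 ± 0.09), while Hk3, the form of myeloid cells, did not pass the test (0.26 ± 0.11, adjusted p = 0.070) but passed it under several alternatives, such as without fibrotic replicate 1 (0.46) and with spots chosen by neighbours (0.38). Over the 22 hexokinase and glycolysis genes 7 were higher and 5 lower, near the background in the lower direction, and with library size scaling 13 were higher and 1 lower. Eno2 and Pfkp, isoforms found outside hepatocytes, rose by 1.90 ± 0.28 and 0.96 ± 0.12. Of the 22 genes 12 leaned to the higher side (median 0.09), and none of the 5 lower ones is named here. Of 21 extracellular vesicle release genes 4 were higher and 5 lower, shares near the background, and with library size scaling 16 were higher and 0 lower. Whether called or not, 8 of the 21 leaned to the higher side (median -0.05), against 6465 of 13318 over all genes. The vesicle genes named here are ones called higher, and none of the 5 lower ones is named. Anxa2 and Sdcbp, a syntenin that sorts cargo into vesicles, rose by 0.51 ± 0.07 and 0.31 ± 0.05. Rab27a and Rab27b, GTPases that dock vesicles for release, rose by 0.41 ± 0.11 and 0.56 ± 0.21, calls that were lost without fibrotic replicate 2 (0.33 and 0.32); Rab27b also lost its call with DESeq2 (0.58) and with spots chosen by neighbours (0.31). Without that section the list had 2 higher and 0 lower, without fibrotic replicate 1 it had 3 lower, and without the Hk2-deleted section 2.

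Calls among growth-related genes changed with the section left out. They are read against the 18.5% of all genes called higher and 21.3% called lower. Whether called or not, 14 of 16 proliferation genes leaned to the higher side (median log2 change 0.30), against 6465 of 13318 over all genes tested. Only 6 of 14 p53 target genes did so (median -0.06). Of 16 proliferation genes 4 were higher and 0 lower, with 7 higher without fibrotic replicate 1, 0 without fibrotic replicate 2 and 2 without the Hk2-deleted section. Mki67, a marker of cycling cells, was at 23.1, 21.8 and 25.5 CPM against 22.1, 16.8 and 12.3 CPM (0.44 ± 0.12), at 0.72 without fibrotic replicate 1 and at 0.22, not past the threshold, without fibrotic replicate 2. Of 14 p53 target genes 3 were higher and 2 lower (1 lower without fibrotic replicate 1 or without the Hk2-deleted section), with Phlda3 at 0.95 ± 0.13 and Ei24 at -0.41 ± 0.05.

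The collagen-richest 10% of the healthy section gives the levels found without CCl4, in a single mouse and with no test. There Dpt was at 33.2 CPM against 6.33 CPM in the other healthy spots, Acta2 at 22.9 against 3.01 CPM and Mfap4 at 7.05 against 0.764 CPM, each higher in the collagen-rich spots. The summed T, NK, B and plasma cell level was 2038 against 1113 CPM and that of class II genes 799 against 516 CPM, while the lipid-associated macrophage list stood at 1881 against 1865 CPM. Gpnmb was at 0.252 CPM (1 UMI) against 0.191 CPM (8 UMIs), and Ighg2c at 0.504 CPM (2 UMIs) against 2.87 CPM, counts too low to rank the spot kinds. Alb was at 131345 against 134255 CPM and Marco at 18.1 against 20.6 CPM. Hk2 was at 2.27 CPM (9 UMIs) against 1.62 CPM.

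Scar-related levels declined with distance from the scar spots. The summed level of the other collagens was 1485, 1316 and 1232 CPM in the scar spots of fibrotic replicate 1, the Hk2-deleted section and fibrotic replicate 2, 922, 866 and 770 CPM at 1 step, 822, 756 and 688 CPM at 2 steps, and 739, 647 and 601 CPM at 5 or more steps. The T, NK, B and plasma cell list went from 11792, 7966 and 5225 CPM in scar spots to 5242, 4371 and 2637 CPM at 1 step and 3390, 3057 and 1644 CPM at 2 steps. Stellate cell genes went from 1256, 1173 and 1395 CPM to 882, 762 and 871 CPM at 1 step and 670, 446 and 471 CPM at 5 or more steps. Hepatocyte secreted proteins took the opposite course, from 199109, 179484 and 187612 CPM in scar spots to 230107, 203516 and 219202 CPM at 1 step. The zonation score fell with distance as well, from a median of 0.82, 1.00 and 1.09 in scar spots to -0.23, -0.29 and -0.37 at 2 steps, and its part in these gradients was not tested.

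**Figure D4:**
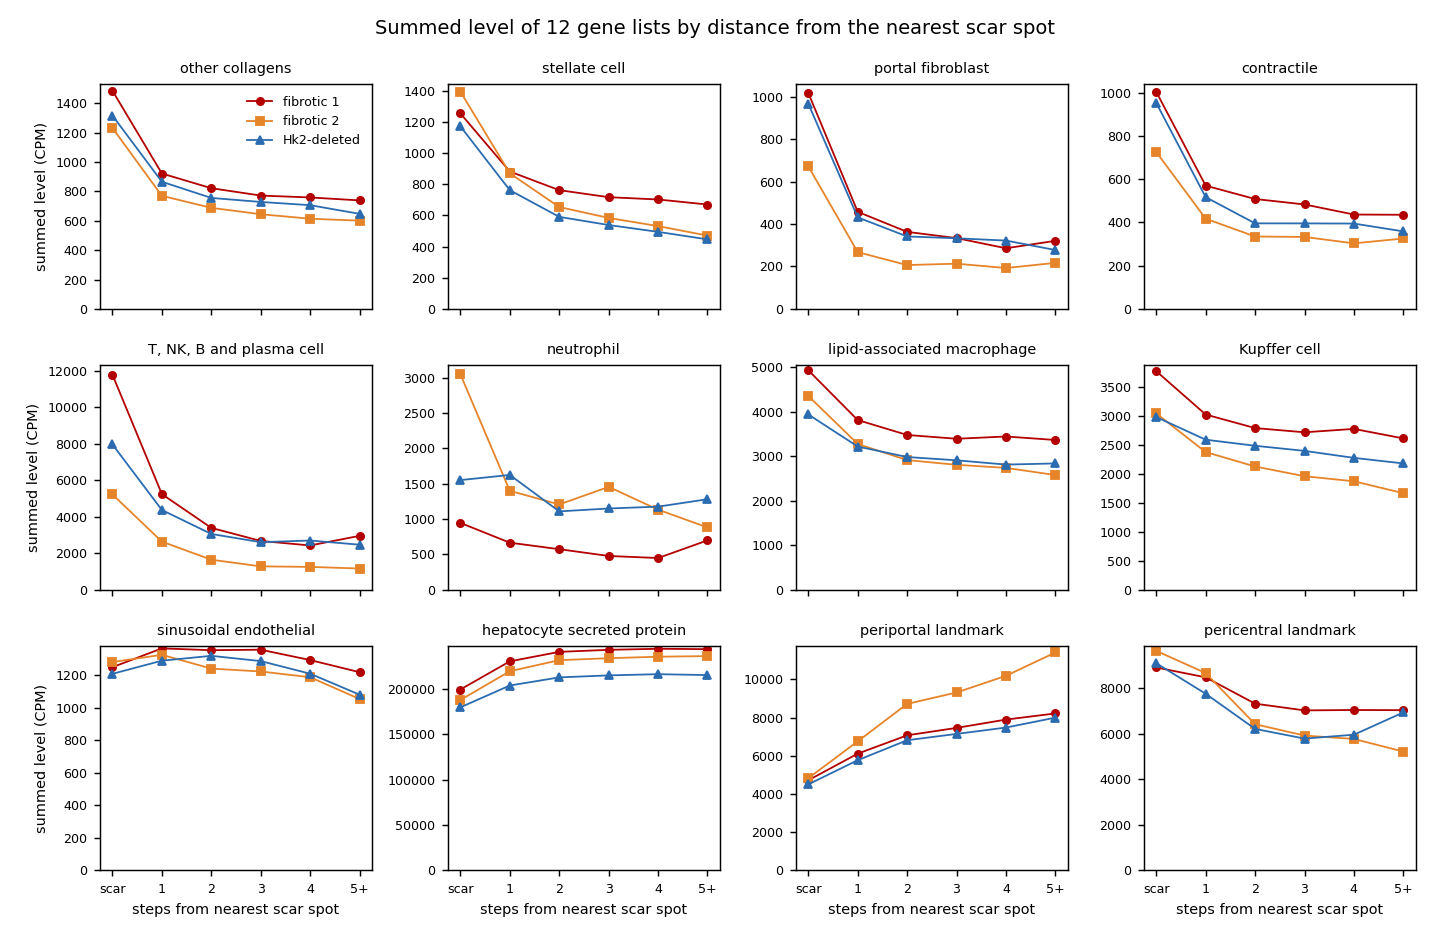
Summed level in CPM of 12 gene lists by the number of array steps to the nearest scar spot (scar, 1 to 4, and 5 or more), for fibrotic replicate 1 (circles), fibrotic replicate 2 (squares) and the Hk2-deleted section (triangles); every panel starts at 0. Matrix, fibroblast and lymphocyte lists drop steeply between the scar spots and 1 step, stellate genes decline further out as well, and hepatocyte secreted proteins and periportal landmarks climb.

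Scar spots inside patches can be set beside isolated ones. There were 43, 49 and 75 scar spots with 3 or more scar neighbours in fibrotic replicate 1, the Hk2-deleted section and fibrotic replicate 2, and 86, 61 and 49 with none. The summed T, NK, B and plasma cell level was 18371, 12407 and 10893 CPM inside patches and 9840, 6260 and 1862 CPM in isolated spots. Portal fibroblast genes were at 1217, 1489 and 966 CPM against 839, 713 and 494 CPM, and stellate cell genes at 1323, 1313 and 1636 CPM against 1252, 1090 and 1202 CPM. The lipid-associated macrophage list was lower inside patches in fibrotic replicate 1, at 4730 against 4989 CPM, and higher in the others, at 4158 against 3803 and 4822 against 4116 CPM. Spots inside patches also had a higher median collagen share (0.346%, 0.202% and 0.261% against 0.320%, 0.156% and 0.176%) and lay more often in the pericentral zone (74.4%, 85.7% and 93.3% against 67.4%, 67.2% and 55.1%). Spots of a section are not replicates, so these values carry no test.

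The few scar spots in the periportal zone were of another make-up from the pericentral ones. There were 16, 23 and 10 of them in fibrotic replicate 1, the Hk2-deleted section and fibrotic replicate 2, against 194, 193 and 202 pericentral scar spots, so single UMIs weigh more in their sums. Both sets were chosen by the same collagen rule, and the landmark genes that set the zone were left out. They were not equal in the collagens of the rule, which are given as a description. Col1a2 was lower in the periportal ones by -0.54 ± 0.13 and Col1a1 by -0.37 ± 0.13, each in all sections, while Col3a1 was at 0.03 ± 0.12. Scar is here the name of spots that passed this rule. Whether the periportal ones held scar or vessel wall, whose smooth muscle also makes fibrillar collagen, was not tested. Of 10469 genes tested 195 (1.86%) were higher in periportal and 194 (1.85%) higher in pericentral scar spots; without fibrotic replicate 1 these were 131 and 125, and without the Hk2-deleted section 132 and 121. In periportal scar 9 of 13 contractile genes were higher and 0 lower, with a median log2 difference of 2.54 against -0.03 over all genes. Acta2 was at 185, 129 and 73.3 CPM in periportal and 10.6, 12.8 and 6.82 CPM in pericentral scar spots (3.68 ± 0.26; adjusted p = 3.67e-15). Myh11 stood at 114, 82.9 and 48.9 CPM against 6.64, 5.66 and 6.45 CPM (3.76 ± 0.35), and Tagln and Tpm2, also of the contractile apparatus, were higher by 3.07 ± 0.20 and 2.37 ± 0.24. Mgp, an inhibitor of calcification made by vessel walls and portal fibroblasts, was at 580, 289 and 130 CPM against 37.1, 26.04 and 9.48 CPM (3.75 ± 0.17; adjusted p = 1.77e-22). For each of these 3 genes with levels given, every periportal value exceeded every pericentral one. They are among the largest increases with 1 sign in all sections, so this describes the choice and adds no support.

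Other genes of the portal tract were higher in the periportal scar as well. Sfrp1, a secreted Wnt antagonist, was at 163, 76.7 and 16.3 CPM against 5.74, 9.43 and 3.03 CPM (3.80 ± 0.36), C7, a complement component made by fibroblasts, was higher by 2.53 ± 0.24 and Gsn (gelsolin) by 2.05 ± 0.16. Of 12 portal fibroblast genes 5 were higher and 1 lower (3 higher without fibrotic replicate 1 or without the Hk2-deleted section); Gas6, a ligand of the TAM receptors, was higher by 1.63 ± 0.13 and Clec3b by 4.19 ± 0.57, the latter from 18, 6 and 1 UMIs. Spp1 (osteopontin), made by cholangiocytes and by some macrophages, stood at 831, 525 and 1042 CPM against 328, 151 and 257 CPM (1.70 ± 0.13). In the list of cholangiocyte genes 2 of 12 were higher, and 1, 0 and 1 without fibrotic replicate 1, the Hk2-deleted section and fibrotic replicate 2. Of 19 hepatocyte secreted protein genes 8 were higher periportally, but 1 without the Hk2-deleted section; Hpx was higher by 0.79 ± 0.12.

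Pericentral scar spots held more stellate cell, scar-associated macrophage, Kupffer cell, plasma cell and neutrophil transcripts. Of 14 stellate cell genes 0 were higher in periportal and 8 in pericentral scar, 4 without any 1 of the sections. Reln (reelin), a matrix glycoprotein of stellate cells, was at 349, 363 and 462 CPM in pericentral scar and 114, 144 and 81.4 CPM in periportal scar (-1.66 ± 0.17; adjusted p = 3.94e-10). Lrat, which stores vitamin A as retinyl ester, stood at 79.7, 55.1 and 80.4 CPM against 17.6, 9.21 and 16.3 CPM (-2.34 ± 0.37), and Hgf, a hepatocyte growth factor, was lower in periportal scar by -1.97 ± 0.32. Pdgfrb did not pass the test, at 65.9, 55.3 and 48.9 CPM in periportal and 64.6, 64.5 and 75.5 CPM in pericentral scar (-0.21 ± 0.25, adjusted p = 0.85).

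Of 15 lipid-associated macrophage genes 9 were lower in periportal scar. Gpnmb was at 22.0, 39.9 and 73.3 CPM there and 195, 137 and 237 CPM in pericentral scar (-2.12 ± 0.23), and Trem2 had 0, 3 and 2 UMIs against 214, 109 and 137 UMIs (-2.77 ± 0.49). Of 11 Kupffer cell genes 6 were lower and 1 higher; Cd5l stood at 325, 464 and 277 CPM against 1089, 976 and 856 CPM (-1.44 ± 0.14) and Clec4f at 229, 203 and 179 CPM against 535, 390 and 414 CPM (-1.11 ± 0.15). Of 15 T, NK, B and plasma cell genes 8 were lower, among them Ighg2b at 26.4, 30.7 and 16.3 CPM against 292, 205 and 97.1 CPM (-3.00 ± 0.25; adjusted p = 3.85e-13). Of 10 neutrophil genes 5 were lower and 0 higher, among them S100a9 at 246, 160 and 489 CPM against 367, 220 and 1338 CPM (-0.86 ± 0.16). Cd207, a lectin, was found in 1, 0 and 1 UMIs against 189, 90 and 122 UMIs, and Rspo3, the Wnt amplifier of the central vein, was lower by -2.32 ± 0.34. Frzb and Syt9 had 0 UMIs in periportal scar and 110 and 111 UMIs in pericentral scar, at least 2.95- and 2.97-fold higher against a floor of 3 counts over the group; Frzb lost its call without any 1 of the sections, and Syt9 without fibrotic replicate 1 or without the Hk2-deleted section, and both with DESeq2. Class II genes did not pass the test in either direction (0 of 10).

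**Figure D5:**
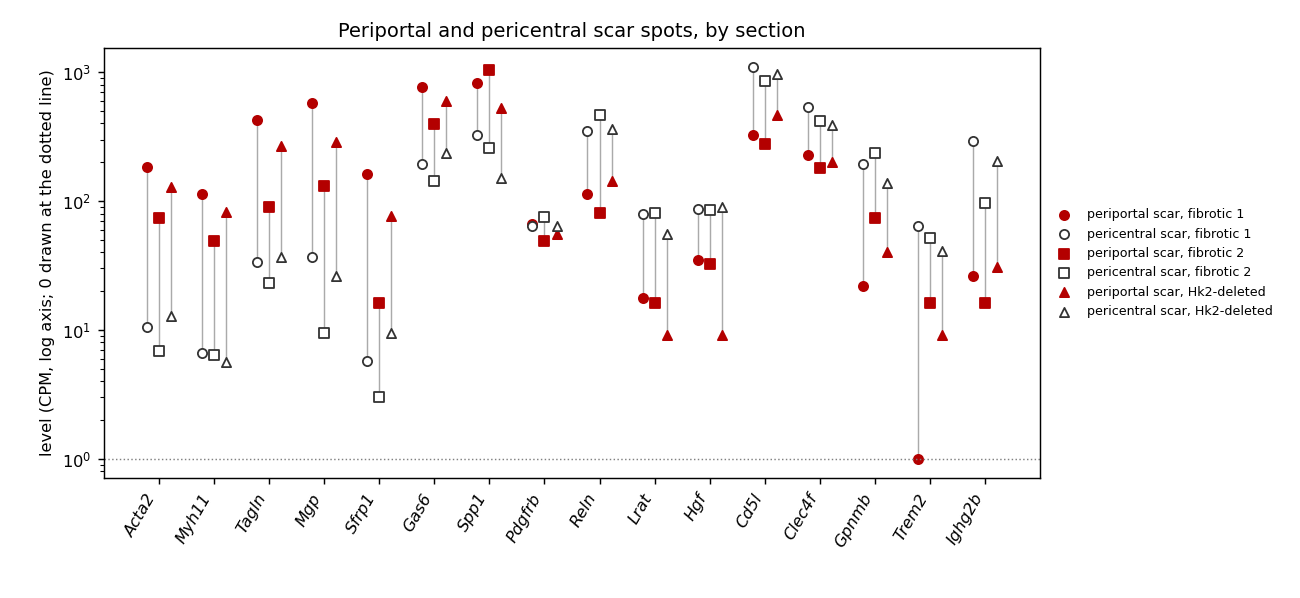
Level of 16 genes in CPM (log axis) in periportal (filled red) and pericentral (open) scar spots of fibrotic replicate 1 (circles), fibrotic replicate 2 (squares) and the Hk2-deleted section (triangles), each pair joined by a line; Trem2 in the periportal scar of fibrotic replicate 1, at 0 UMIs, is drawn on the dotted line. Acta2 to Spp1 are higher in periportal scar in each section, Pdgfrb is mixed, and Reln to Ighg2b are lower.

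Whether these zone differences belonged to the scar, or to the zones in general, was asked by comparing the difference in scar spots with that in the other non-surface spots. It was larger in scar spots for 86 of 12427 genes (0.692%) and smaller or more negative for 29 (0.233%); without fibrotic replicate 1 these were 23 and 8, and without the Hk2-deleted section 55 and 19. Without fibrotic replicate 2 they were 78 and 18, and with DESeq2 16 and 1. Of 14 contractile genes 9 had a larger periportal excess in scar, 5 without fibrotic replicate 1, with a median of 2.06 against -0.08 over all genes. For Myh11 the log2 periportal to pericentral ratio was 3.95, 3.72 and 2.78 in the scar spots of fibrotic replicate 1, the Hk2-deleted section and fibrotic replicate 2 and 1.23, 0.86 and 0.57 in the others, a difference of 2.67 ± 0.43. The corresponding differences were 2.40 ± 0.35 for Acta2, 2.25 ± 0.20 for Tagln, 2.13 ± 0.19 for Mgp and 1.53 ± 0.20 for Eln (elastin). H2-Ab1 was lower periportally outside the scar (-0.72, -0.61 and -0.88) but not within it (-0.13, 0.24 and 0.14), a difference of 0.79 ± 0.13. Cd5l and Clec4f had a stronger pericentral excess in scar (-1.01 ± 0.13 and -0.76 ± 0.14), as 4 of 11 Kupffer cell genes did. With DESeq2 Clec4f (-0.71, adjusted p = 0.51) and H2-Ab1 (0.88, adjusted p = 0.053) lost their calls. Of the lists higher in pericentral scar, few genes passed here: 1 of 16 stellate cell genes was higher and 1 lower, 3 of 16 lipid-associated macrophage genes were lower, and 1 of 18 T, NK, B and plasma cell genes was lower. Of 12 neutrophil genes likewise 1 was lower. For most genes of all these lists the zone difference was thus not shown to be particular to scar.

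Scar spots were also set against 257, 443 and 6 surface spots that passed the same collagen boundary in fibrotic replicate 1, the Hk2-deleted section and fibrotic replicate 2. Of 11890 genes tested 129 (1.08%) were higher and 225 (1.89%) lower in scar spots. These counts leaned on single sections: 11 and 59 without fibrotic replicate 1, 11 and 23 without the Hk2-deleted section, and 93 and 148 without fibrotic replicate 2, whose surface side rests on 6 spots. With DESeq2 they were 2 and 26. Mesothelial genes outside the rule were lower in scar for 6 of 7, and for 1 without fibrotic replicate 1 or without the Hk2-deleted section. Gpm6a was at 10.9, 11.6 and 7.70 CPM in scar and 34.4, 44.3 and 8.68 CPM at the surface (-1.76 ± 0.16). The rule chose the 2 sets by UMIs of the mesothelial genes Msln and Upk3b. Lower levels of other mesothelial genes in scar thus follow from the choice and are a description only. Of 12 neutrophil genes 10 were lower away from the surface (6 without fibrotic replicate 1 or without the Hk2-deleted section, 4 without fibrotic replicate 2), with Ltf at 43.8, 33.0 and 155 CPM against 85.6, 70.6 and 764 CPM (-1.32 ± 0.10), a call lost against all surface spots (-0.25). Krt7, a cytokeratin of bile ducts and mesothelium, stood at 17.9, 12.9 and 8.32 CPM against 40.6, 65.9 and 52.1 CPM (-1.78 ± 0.14). As a gene of mesothelium it is touched by the choice as well, so its value is a description only. Chil1, a chitinase-like protein, was lower by -2.53 ± 0.18. With no replicate block Chil1 (-2.40) and Ltf (-0.92) lost their calls. Saa3 was at 10.3, 77.6 and 4.00 CPM in scar and 104, 884 and 0 CPM at the surface (-3.44 ± 0.11), with fibrotic replicate 2 in the opposite direction. It did not pass with DESeq2 (-2.60) or with no replicate block (-3.70). In the other direction 6 of 14 contractile genes were higher in scar (0, 2 and 2 without fibrotic replicate 1, fibrotic replicate 2 and the Hk2-deleted section), as were 5 of 17 vascular and lymphatic endothelial genes (0, 4 and 0) and 4 of 18 T, NK, B and plasma cell genes (4, 2 and 3). Of the collagens of the rule, Col1a1 was at 939, 547 and 656 CPM in scar and 1126, 1161 and 633 CPM at the surface, and Col1a2 at 904, 596 and 550 CPM and 1093, 1145 and 503 CPM, so the surface spots were richer in both in 2 of the 3 sections. Of 16 stellate cell genes 0 were higher and 1 lower, and of 16 lipid-associated macrophage genes likewise 0 and 1; neither count shows that the levels were alike.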

How the data were processed

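Spatial UMI counts of 19465 genes per spot were deposited by the authors as filtered matrices, made with Space Ranger 2.0.0 per the file headers and with the mouse build mm10 per the submitters' processing notes; alignment settings: not given in the sources used here. Deposited Moran's I values (a score of spatial clustering per gene) were read but carry no result. From the counts, spots were classed as described, with distances in array steps, and UMIs were summed per section and spot kind. Sums were tested with edgeR 4.0.16 (TMM, filterByExpr, section as a block, quasi-likelihood F test, Benjamini-Hochberg over all genes; SE is the log2 fold change over the square root of F), after a check on simulated data; DESeq2 1.42.0 was an alternative. Section is the block because both spot kinds come from the same mouse. For zonation, log2(CPM + 1) of each landmark was turned into a z value over non-surface spots; the periportal mean was subtracted from the pericentral one. No doublet caller was run.

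Gene levels carry TMM factors set anew in each comparison, so a gene's level in scar spots differs somewhat between comparisons; healthy levels and summed levels of lists are plain CPM. Genes named are the 12 largest increases and 8 largest decreases with a pooled CPM of at least 10 and 1 sign in all sections (8 and 8 in later comparisons), up to 4 called members per list, and a fixed set (the 3 collagens, Msln, Upk3b, hexokinases, Pdgfrb, Acta2, Timp1, Wt1, Cyp2e1, Cyp2f2, Alb and Y-linked genes); fewer were printed. Col18a1, Bmp1, Mmp19 and Plin2 were named after their values were seen. The members and lists were chosen with earlier results of these data known. Left out of counts of calls were the 3 collagens, Msln and Upk3b, and, between zones, the landmarks. The alternatives tried are other normalizations, filters, boundaries, margins, depths and leaving out each section.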

Additional observations from a re-analysis of the deposited data

Results flagged for a closer look

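Saa3 went in opposite directions in scar spots of the 2 groups. The log2 ratio of scar over other non-surface spots was 1.35 in the Hk2-deleted section and -0.13 and -0.24 in fibrotic replicates 1 and 2. The difference between the groups was not tested, since 1 of them is a single mouse.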

How the results depend on the processing

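The sums rest on 3 mice, and periportal scar spots on few UMIs, so low genes there are imprecise. For scar against other spots, higher and lower counts were 1494 and 1806 with DESeq2, 1365 and 1610 with spots chosen by neighbours, 6163 and 652 with library size scaling, 978 and 573 with no replicate block, 852 and 927 with spots thinned to 2000 UMIs, and 1404 and 1697 in the pericentral zone (added after seeing the data); leaving out 1 section gave 1762 to 2224 and 1907 to 2237. Between zones, counts were 97 and 65 with DESeq2, 84 and 74 with no replicate block and 30 and 51 thinned; leaving out 1 section gave 131 to 167 and 121 to 133. For the zone difference in scar against other spots they were 16 and 1 with DESeq2, and 9 were lower with library size scaling; leaving out 1 section gave 23 to 78 and 8 to 19. A fit with no replicate block was not run for that comparison, which rests on differences within sections. Against surface spots they were 2 and 26 with DESeq2, 0 and 21 with no replicate block, 894 and 935 with all surface spots, and 353 lower with library size scaling; leaving out 1 section gave 11 to 93 and 23 to 148. Directions that turned were Slc1a2 (-0.10) and Cyp2e1 (-0.29) with the other spots weighted by zone, Slc1a2 (-0.055) and Cyp2e1 (-0.26) in the pericentral zone, and Saa3 with a margin of 3 steps (-0.052) and without the Hk2-deleted section (leaving out 1 section gave -0.17 to 1.22), and Plin2 with library size scaling (0.095). Slc1a2 and Cyp2e1 are part of the zonation score, so their values with zone held are no test. With no replicate block, Ighg2c, C1qa, Rab27a, Sdcbp, Alb, Fgb, Fga, Hpx, Oat, Slc1a2, Orm1, Orm3, Saa4, Mki67, Ei24 and Col18a1 lost their calls between scar and other spots with nearly the same fold changes. With thinned spots, Pfkp, Phlda3, Gpm6a, Cd163, Sdcbp, Mki67, Rab27a, Rab27b, Saa3 and Plin2 lost their calls. Some of their fold changes moved, such as those of Pfkp (0.70), Gpm6a (1.25) and Mki67 (0.71). Between zones C7, Trem2, Gpnmb, Hgf, Cd207 and Rspo3 lost theirs with thinned spots. The causes were not tested. Every other setting of scar against other spots kept both counts within 1.5 times.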
